A study of Mus musculus with 64 samples.

Results

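The late phase of the response to lipopolysaccharide (LPS) was described in macrophages of BALB/c mice as the change between 8 h and 24 h of treatment. It was held by 6 of the series' 64 arrays, chosen by their labels: 2 at 24 h of LPS at 5 ng/ml, 2 at 8 h of the same dose, and 2 at 0 h as the baseline. The cells were grown from femoral marrow of male mice aged 7 to 8 weeks, of BALB/c for these arrays and of C57BL/6 for a comparison. They were seeded on day 6 at 200000 per well of a 24-well plate with CSF1, the growth factor of the lineage, at 10000 U/ml, and were treated on day 7. All groups, 0 h included, carried this CSF1. Each array held 250 ng of labelled total RNA from 1 well. The 0 h arrays are labelled as untreated controls, and no untreated wells at 8 h or 24 h are in the labels, so time in culture and time in LPS cannot be told apart. For comparison, the same interval was taken from C57BL/6 macrophages in LPS at 5 ng/ml and from BALB/c macrophages in IFN-beta or IFN-gamma at 10 U/ml, with 4 arrays in each. The labels do not say that wells came from different mice or preparations, so p-values measure only the spread between wells.

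LPS, a component of the outer membrane of Gram-negative bacteria, is sensed by Toll-like receptor 4. Through the adaptors Myd88 and Trif the receptor activates NF-kB, MAP kinases and Irf3, which start cytokine, chemokine and interferon beta transcription in waves. Induced inhibitors such as IkB proteins, A20, SOCS proteins and the mRNA decay factor Zfp36 (TTP) shut much of it down again. Macrophages in CSF1 divide, and LPS is known to stop that division. Activated macrophages are also known for a shift to glycolysis in which the hypoxia-inducible factor HIF-1 takes part.

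The values are the authors' deposited probe set intensities, used here as log2. Unless stated otherwise a difference is the 24 h mean minus the 8 h mean of log2 intensity ± SE, with 2 arrays a group. It was fitted with limma over all 64 arrays, so that each gene's spread is pooled over 32 groups. A gene was called at a Benjamini-Hochberg adjusted p under 0.05 over 18820 genes and an absolute log2 difference of at least 1. With 2 arrays a group, precision is set by their small number. The replicates correlated at 0.992 across genes at 24 h, 0.995 at 8 h and 0.997 at 0 h, and 16, 4 and 0 genes lay more than 1.5 log2 apart between the replicates at those times.

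Before the results it must be said that the pair of 24 h arrays was split. By their replicate differences over probe sets that have no gene name, 53 of the 64 arrays formed a larger set and 11 a smaller one, whose origin the labels do not give. Replicate 2 of 24 h had the highest score of the smaller set (0.323) and replicate 1 of 24 h the lowest of the larger set (-0.265). The 8 h and 0 h arrays were all in the larger set, with scores from -0.079 to -0.01. With the set as a covariate 1142 genes were called, of which 1023 were called in the same direction in the main fit, a share of 89.6% of these and 89.7% of the main calls. Without replicate 2 of 24 h, which leaves the compared times in the larger set alone, 1167 genes were called, of which 971 were shared (83.2% of these and 85.1% of the main calls). Without replicate 1 of 24 h 1286 genes were called, of which 994 were shared (77.3% and 87.1%). The smaller set held no 8 h array of LPS at 5 ng/ml and gives no value of its own. For the 32 genes named below as class leaders the difference moved by at most 0.38 without either 24 h array. None of them lost its call under any alternative in which it was tested.

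The defining genes of macrophages were high at all 3 times. Of 10 such markers 0 were called, though 4 had an unadjusted p under 0.05. Among all genes 6.06% were called, so counts of 0 or 1 in the short marker lists here lie near that share. The summed intensity of the macrophage markers was 49353 to 54232 at 24 h, against 47526 to 48315 at 8 h. At 0 h the sum was 42459 to 43254. The CSF1 receptor Csf1r read 12.07 and 12.12 at 24 h, against 11.56 and 11.60 at 8 h. Spi1 of the same list went the other way, at 12.02 and 12.01 at 24 h, against 12.46 and 12.44 at 8 h. Of 7 B cell markers 5 were in the dim range at all 3 times, and of 8 T and NK cell markers 7 were. The sums over the B cell markers were 118 to 122 at 24 h, against 138 to 143 at 8 h, and over the T and NK cell markers 118 to 133, against 131 to 144. Of 13 granulocyte markers 1 was called (the neutrophil collagenase Mmp8, -1.35 ± 0.14), with sums of 827 to 901 at 24 h, against 1227 to 1249 at 8 h. Of 10 dendritic cell markers 1 was called higher, the migration receptor Ccr7 (2.17 ± 0.20), with sums of 683 to 811 at 24 h, against 302 to 323 at 8 h. Without Ccr7 the other 9 summed to 172 to 174 at 24 h, against 182 to 188 at 8 h, and the median difference of the list was 0.05. Flt3 (-0.67 ± 0.25), Kmo (-0.54 ± 0.18) and Clec9a (-0.45 ± 0.19) had lower values at 24 h and were not called. Among 10 stromal markers the proteoglycan Dcn was called higher (1.68 ± 0.24) and the PDGF receptor Pdgfrb lower (-1.65 ± 0.23), with sums of 567 to 634 at 24 h, against 822 to 842 at 8 h. None of 5 erythroid markers (384 to 517 at 24 h, against 446 to 453 at 8 h) and 8 mast cell markers (125 to 147, against 120 to 131) was called. The part of other cell types in the results was not tested.

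Of 18820 genes 1141 were called between 24 h and 8 h, or 6.06%: 617 were higher at 24 h (3.28%) and 524 lower (2.78%). In every called gene both 24 h arrays lay on the same side of both 8 h arrays, a property that 52.4% of all genes had. The median difference over all genes was -0.001. Placed against 0 h by group means, the falls split into resolution and late loss. In 217 of the 524 (41.4%) the level at 8 h stood at least 1 log2 above 0 h and then came down, here called resolution. Of these 140 ended less than 1 log2 above 0 h and 77 were still at least 1 above it. In 249 of the 524 (47.5%) the level at 8 h was less than 1 log2 above 0 h and the level at 24 h at least 1 below it, here called late loss. The other 58 met neither description.

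The rises split likewise. In 181 of the 617 (29.3%) the level at 24 h stood at least 1 log2 above 0 h, here called late induction, and in 151 of these the 8 h level had not. In 283 (45.9%) a level at least 1 log2 below 0 h at 8 h was followed by one less than 1 above 0 h at 24 h, here called recovery. The other 153 met neither description. The place against 0 h is a description with no test, since it uses the arrays of the tested difference.

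**Figure D1:**
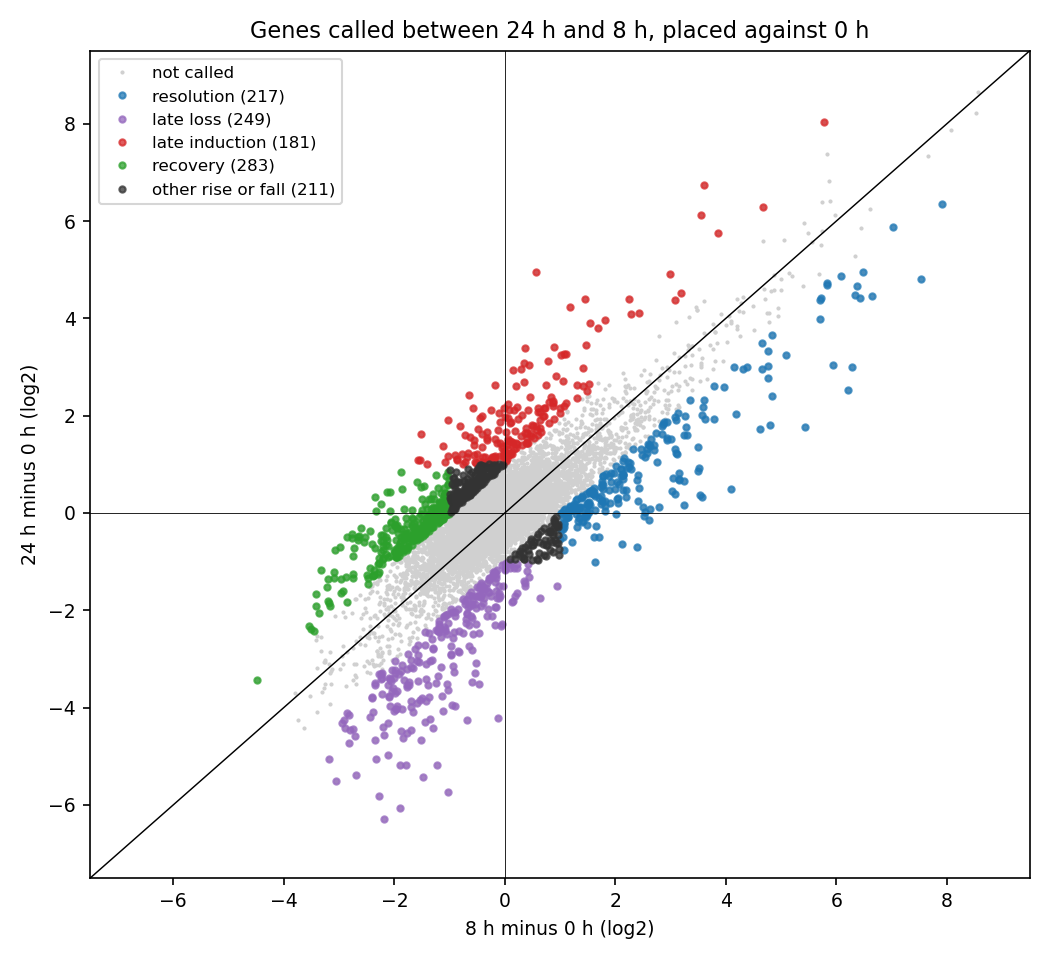
Group means of log2 intensity relative to 0 h for 18820 genes, with 8 h minus 0 h across and 24 h minus 0 h upward; the line marks no change between 24 h and 8 h. Resolution (217 genes) lies below the line at the right, late loss (249) below it toward the bottom, late induction (181) above it toward the top and recovery (283) above it at the left.

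The 4 h arrays lay outside the tested means and the class limits, but entered the pooled spread of the fit. Their place against 0 h describes how early each class had moved. It uses the 0 h arrays of the classes, and the 8 h limits partly fix it, so it is no independent support. Over all genes the median at 4 h was -0.07 relative to 0 h. Of the 217 resolution genes 162 were already at least 1 log2 above 0 h at 4 h, and 0 were that far below it. Of the 181 late induction genes 20 were that far above 0 h at 4 h, and of the 249 late loss genes 11 were that far below it. Recovery genes lay in between, with 114 of 283 at least 1 log2 below 0 h at 4 h. The class medians relative to 0 h at 1, 2, 4, 8 and 24 h were 0.36, 0.60, 1.78, 2.14 and 0.57 for resolution. They were -0.02, -0.12, -0.32, -1.05 and -2.72 for late loss, 0.03, -0.04, 0.04, 0.12 and 1.67 for late induction, and -0.13, -0.26, -0.89, -1.61 and -0.29 for recovery. The step between 8 h and 24 h is part of how the classes were chosen and is no result.

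**Figure D2:**
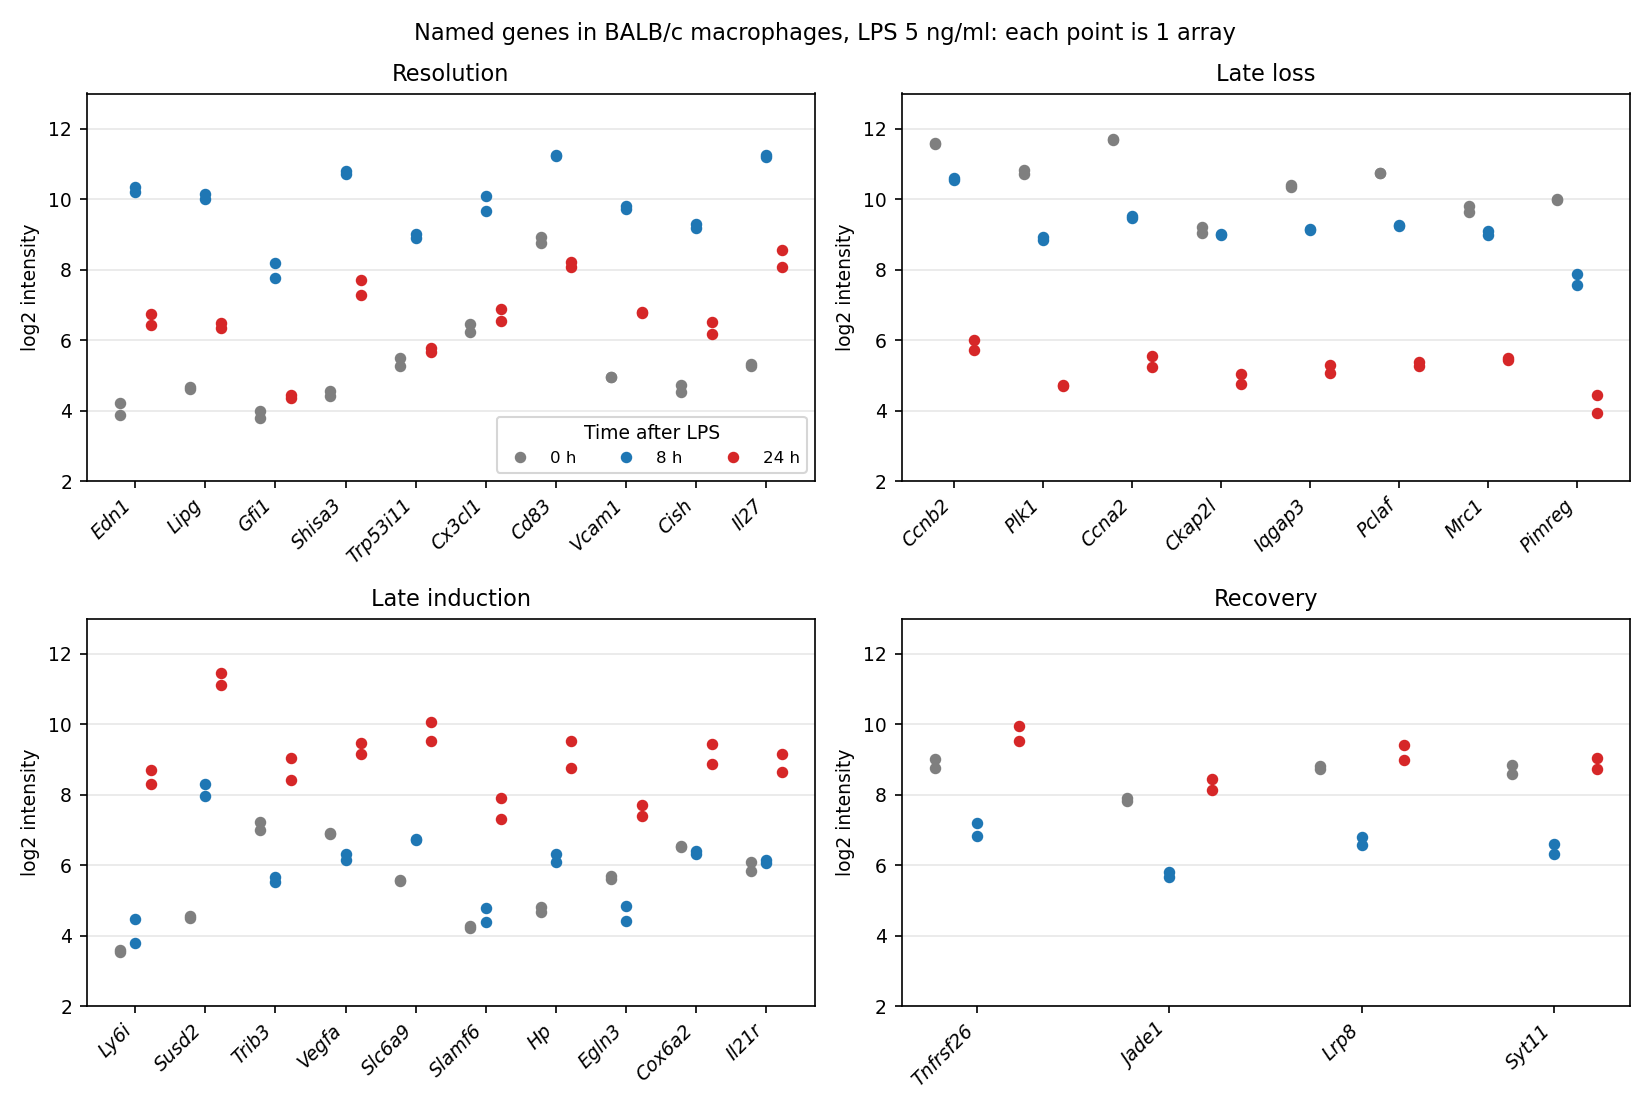
Log2 intensity of the genes leading each class in BALB/c macrophages at 0, 8 and 24 h of LPS at 5 ng/ml; each point is 1 array, 2 per time. In every gene shown both 24 h arrays lie outside the range of both 8 h arrays, and the distance to the 0 h arrays shows whether a gene came back, as Gfi1 and Jade1 did, or moved away, as Mrc1 and Vegfa did.

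The largest fall of a resolution gene was that of Edn1, which encodes the precursor of the vasoconstrictor peptide endothelin-1. It read 6.42 and 6.74 at 24 h, against 10.34 and 10.19 at 8 h (-3.69 ± 0.34, adjusted p = 2.1e-11), a 12.9-fold fall. The 0 h arrays read 4.22 and 3.87, so the 24 h level was still above them. Its mean over the course was 4.05, 6.17, 7.13, 9.80, 10.27 and 6.58 at 0, 1, 2, 4, 8 and 24 h. Gfi1, a zinc finger repressor of transcription, read 4.44 and 4.35 at 24 h, against 8.20 and 7.77 at 8 h (-3.59 ± 0.20, adjusted p = 2.3e-17). Its 0 h arrays read 3.78 and 4.00, and its 24 h mean lay under 4.49, the 40th percentile of all gene values, where signals are dim. The 250 bases before the annotated starts of both genes are shown as example promoters from among the 10 largest falls in resolution. They come from RefSeq on GRCm38.p6 and are read 5′ to 3′ on the gene's strand. Capitals mark matches on either strand to a kappaB motif, the site class bound by NF-kB, to the CRE core TGACG, to the cell cycle element CHR (TTTGAA) and to the CCAAT box. Edn1 lies at chr13:42301226-42301475 on the plus strand and Gfi1 at chr5:107725806-107726055 on the minus strand. The Gfi1 window shown holds 1 kappaB match, from base -71 to -62 before its start, and the Edn1 window holds none of these letters for kappaB.
Edn1: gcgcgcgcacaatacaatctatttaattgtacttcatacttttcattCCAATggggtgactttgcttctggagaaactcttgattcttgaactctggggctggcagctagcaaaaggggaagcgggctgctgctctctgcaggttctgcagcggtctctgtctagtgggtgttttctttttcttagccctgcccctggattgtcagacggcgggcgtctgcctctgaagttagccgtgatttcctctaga
Gfi1: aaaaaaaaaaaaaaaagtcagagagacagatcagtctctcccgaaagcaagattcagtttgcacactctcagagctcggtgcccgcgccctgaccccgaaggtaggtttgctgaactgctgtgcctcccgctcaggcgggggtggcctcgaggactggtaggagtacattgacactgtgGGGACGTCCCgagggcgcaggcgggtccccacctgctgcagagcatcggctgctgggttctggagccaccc

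A kappaB match was found in 39 of 223 promoter windows of 300 bases (17.5%) of resolution genes, of which 163 of 217 had a window. It was found in 8.46% of all 32851 windows in the table and in 9.59% of the 18141 windows of the genes tested. In late loss the share was 7.88%, in late induction 7.77% and in recovery 13.3%. These shares are descriptions with no test, and a match is not a site.

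Lipg, an endothelial lipase, read 6.35 and 6.49 at 24 h, against 10.00 and 10.16 at 8 h (-3.66 ± 0.25), with 4.67 and 4.62 at 0 h. Shisa3, a membrane protein of the Shisa family, read 7.71 and 7.27 at 24 h, against 10.81 and 10.72 at 8 h (-3.27 ± 0.45). Its 0 h arrays read 4.42 and 4.55. Both genes remained above 0 h at 24 h. Trp53i11, named as a p53-inducible gene, read 5.66 and 5.77 at 24 h, against 8.91 and 9.02 at 8 h (-3.25 ± 0.17), and Cx3cl1, the membrane-bound chemokine fractalkine, read 6.87 and 6.54, against 10.08 and 9.67 (-3.17 ± 0.17). For both the 24 h arrays came within 1 log2 of 0 h (5.28 and 5.49 and 6.45 and 6.24).

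Cd83, an activation glycoprotein of antigen-presenting cells, fell below its starting level: it read 8.09 and 8.22 at 24 h, against 11.23 and 11.25 at 8 h (-3.09 ± 0.27), with 8.77 and 8.94 at 0 h. The adhesion molecule Vcam1 read 6.79 and 6.77 at 24 h, against 9.80 and 9.72 at 8 h (-2.99 ± 0.29). Cish, a SOCS family inhibitor of Stat5 signalling, read 6.52 and 6.18, against 9.31 and 9.19 (-2.90 ± 0.27). Il27, the p28 subunit of interleukin-27, read 8.57 and 8.09, against 11.24 and 11.20 (-2.90 ± 0.28). At 0 h these 3 genes read 4.97 and 4.97, 4.54 and 4.73 and 5.31 and 5.27, so each kept part of its rise. The adjusted p of the 10 resolution genes named here was at most 3e-07.

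Secreted signals resolved unevenly. Of 26 inflammatory cytokines 8 fell (30.8%, against 2.78% of all genes) and 1 rose (3.85%, near the 3.28% of all genes). The median difference was -0.44, against a median of 0 over all genes. The falls were in Edn1, Il27, Il18 (-2.59 ± 0.19), whose product is matured by caspase-1, Csf2 (-2.31 ± 0.23), Il6 (-1.56 ± 0.56), Il12a (-1.55 ± 0.22), Tnfsf15 (-1.44 ± 0.32) and Ifnb1 (-1.02 ± 0.25). Il6 had the largest SE of these. The calls of Csf2, Il6, Il12a, Tnfsf15 and Ifnb1 were not followed singly with an array left out. Il18 read 6.80 and 7.29 at 24 h, against 9.68 and 9.59 at 8 h, with 6.02 and 6.21 at 0 h. The rise was in Il1f9, the interleukin-36 gamma gene, at 6.26 and 6.71, against 4.00 and 4.27 (2.35 ± 0.31), with 3.44 and 3.28 at 0 h. Tnf differed by -0.68 ± 0.14 and Il1b by -0.30 ± 0.93 and were not called. The count of cytokines that fell was 9 without replicate 2 of 24 h and 6 without replicate 1, when 2 rose.

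Of 24 chemokines 9 fell (37.5%, against 2.78% of all genes) and 0 rose, with a median of -0.56. Ccl17, a ligand of Ccr4, read 9.25 and 8.94 at 24 h, against 11.77 and 11.85 at 8 h (-2.72 ± 0.39). Its 0 h arrays read 4.01 and 4.56, and both 24 h arrays stood well above them. Ccl24 (eotaxin-2) returned to its start, with 4.32 and 4.73 at 24 h, against 7.31 and 7.10 at 8 h (-2.68 ± 0.27) and 4.36 and 4.46 at 0 h. Ccl4 read 9.09 and 8.79, against 11.53 and 11.49 (-2.57 ± 0.19), with 8.32 and 8.22 at 0 h. The others that fell were Cx3cl1, the neutrophil attractant Cxcl1 (-1.86 ± 0.46), Ccl12 (-1.72 ± 0.24), the Cxcr3 ligands Cxcl10 (-1.21 ± 0.26) and Cxcl9 (-1.15 ± 0.43), and Ccl6 (-1.13 ± 0.20), the only late loss gene of the list. Cxcl9 had the largest SE for the size of its difference. Apart from Cx3cl1 these calls were not followed singly with an array left out. Without replicate 1 of 24 h the count was 7.

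Co-stimulation and adhesion genes fell in 6 of 19 cases (31.6%, against 2.78% of all genes) and rose in 1 (5.26%, against 3.28%), with a median of -0.53. After Cd83 and Vcam1 came the early activation antigen Cd69, at 9.15 and 9.57 at 24 h, against 11.51 and 11.60 at 8 h (-2.19 ± 0.21), with 4.95 and 4.87 at 0 h. The co-stimulatory receptor Cd40 read 10.98 and 10.93, against 12.66 and 12.66 (-1.71 ± 0.25), with 6.21 and 6.37 at 0 h. Cd44 (-1.32 ± 0.09) and Icam1 (-1.11 ± 0.11) also fell, and the endocytic receptor Ly75 (DEC-205) rose (1.31 ± 0.32).

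Among the regulators of the response, of 20 NF-kB subunits and feedback inhibitors 2 fell (10.0%, against 2.78% of all genes), and 4 without replicate 1 of 24 h. The 2 were Nfkbiz, a nuclear IkB protein needed for a set of secondary genes, at 8.90 and 8.63, against 10.57 and 10.45 (-1.75 ± 0.24), and Nfkbie (-1.09 ± 0.19). The Nfkbie call was lost with the array set as a covariate (-0.89) and without replicate 2 of 24 h (-0.81). Nfkb2 (-0.90 ± 0.16) and Tnfaip3, which encodes A20 (-0.89 ± 0.13), missed the minimum change. Of 27 immediate early genes 4 fell and 1 rose, with a median of -0.01, and 3 rose without replicate 2 of 24 h. In the full set the falls were 14.8% of the list and the rise 3.7%, against 2.78% and 3.28% of all genes. There the nuclear receptor Nr4a3 (-2.15 ± 0.20), the MAP kinase phosphatase Dusp2 (-2.03 ± 0.24), Myc (-1.48 ± 0.16) and Zfp36 (-1.46 ± 0.11) fell and Fos rose (1.37 ± 0.23). Dusp2 read 5.30 and 5.11 at 24 h, against 7.28 and 7.19 at 8 h, and thus reached the 5.30 and 5.14 of 0 h. Myc read 8.20 and 7.91, against 9.55 and 9.52, and had started at 9.96 and 9.97, so its fall at 24 h was a late loss.

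Of 25 genes of interferon and cytokine signalling 4 fell (16.0%, against 2.78% of all genes) and 1 rose (4.0%, near the 3.28% of all genes). Cish, Stat5a (-1.59 ± 0.18), Socs3 (-1.31 ± 0.29) and Irf1 (-1.04 ± 0.12) fell, and Ifngr1, a chain of the interferon gamma receptor, rose (1.22 ± 0.19). Ifngr1 read 9.31 and 9.95 at 24 h, against 8.37 and 8.44 at 8 h, with 9.97 and 9.82 at 0 h. Its call was lost with the array set as a covariate (0.99) and without replicate 2 of 24 h (0.90). Among 22 negative regulators of inflammation 4 fell (18.2%, against 2.78% of all genes) and 2 rose (9.09%, against 3.28%). The pseudokinase Trib1 (-1.56 ± 0.20) and Cebpd (-1.34 ± 0.19) stood beside Zfp36 and Socs3 in the falls, and Tsc22d3 (GILZ, 1.44 ± 0.11) and Bcl6 (1.11 ± 0.15) in the rises. Without replicate 1 of 24 h 1 rose.

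Of 27 antiviral genes 0 were called between 24 h and 8 h by limma at the threshold used. Among all genes 2.78% were called lower and 3.28% higher, so a count of 0 in a list of this size lies near these shares. The summed intensity of the list was 72611 to 82864 at 24 h, against 87946 to 89384 at 8 h. The largest difference was that of the RNA sensor Ifih1 (Mda5), at 10.97 and 11.22 at 24 h, against 11.95 and 11.96 at 8 h (-0.86 ± 0.17, adjusted p = 8.8e-05). Its 0 h arrays read 8.61 and 8.52. 8 of the 27 had an unadjusted p under 0.05. The kinase Eif2ak2 (PKR, -0.72 ± 0.20) was called without replicate 2 of 24 h (-1.08). The antiviral GTPases Mx1 (-0.75 ± 0.40) and Mx2 (-0.65 ± 0.33) were not called. The median of the list relative to 0 h was 2.56 at 24 h, against 2.73 at 8 h, while that of the chemokines was 1.1, against 2.77. A step between such medians is not the typical change of a gene. The median difference per gene was -0.19 for the antiviral list and -0.56 for the chemokines, of which 15 of 24 were not called. Of 8 interferon-induced GTPases 1 was called lower (12.5%, against 2.78% of all genes), Gbp5 (-1.15 ± 0.41, adjusted p = 0.035). This call was lost without any 1 of the 8 h and 24 h arrays, with differences from -1.24 to -1.06.

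Of 9 MHC class II genes 2 rose (22.2%, against 3.28% of all genes) and 6 had an unadjusted p under 0.05. The rises were in both chains of H2-O, which restrains peptide loading: H2-Oa read 7.45 and 6.68 at 24 h, against 5.80 and 5.49 at 8 h (1.42 ± 0.21), and H2-Ob read 6.90 and 7.21, against 5.99 and 5.87 (1.12 ± 0.19, 0.97 without replicate 2 of 24 h and then not called). Of 15 class I genes 1 fell (6.67%, against 2.78% of all genes), the transactivator Nlrc5 (-1.25 ± 0.20, and -0.95 and not called without that replicate). Of 19 effector enzymes and secreted effectors 2 rose (10.5%, against 3.28% of all genes) and 1 fell (5.26%, against 2.78%). The siderophore-binding Lcn2 rose (2.25 ± 0.63), as did haptoglobin (Hp), while the histamine-forming enzyme Hdc fell (-2.0 ± 0.21). Lcn2 read 12.28 and 12.62 at 24 h, against 10.21 and 10.19 at 8 h, with 4.44 and 4.39 at 0 h. Its adjusted p was 0.006, and 0.054 without replicate 2 of 24 h. The inducible nitric oxide synthase Nos2 (0.07 ± 0.87) and the itaconate-forming enzyme Acod1 (0.04 ± 0.27) did not pass the test.

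**Figure D3:**
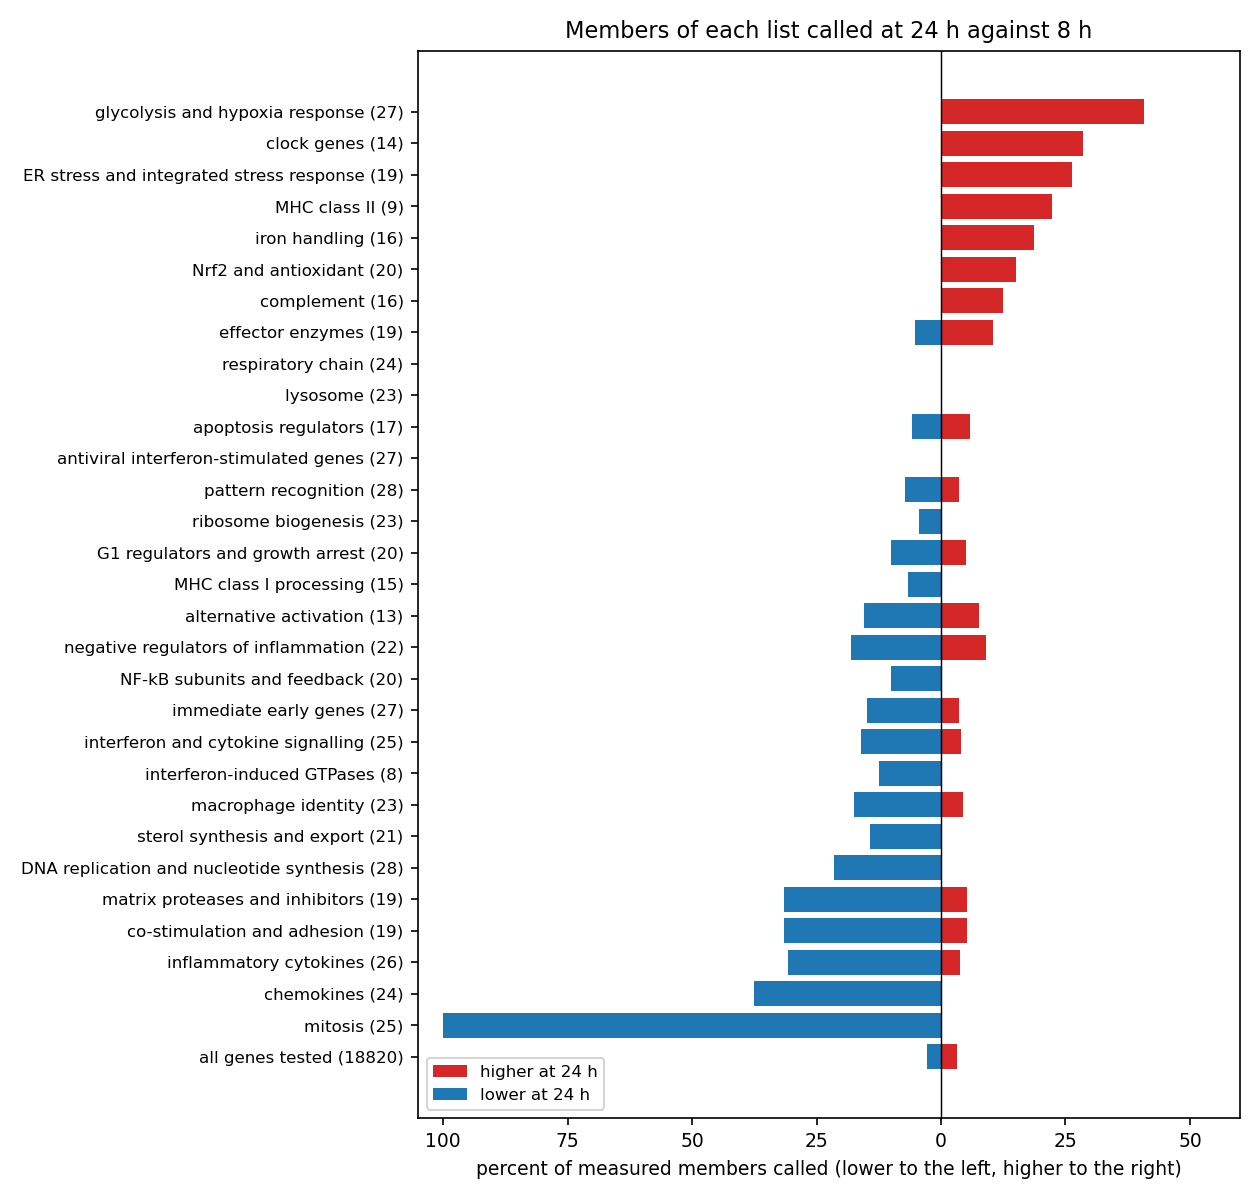
Percent of the measured members of 30 gene lists (number in brackets) called between 24 h and 8 h, with members higher at 24 h to the right and members lower at 24 h to the left of 0. The bottom bar gives all 18820 genes, 3.28% higher and 2.78% lower; the mitosis list extends fully to the left, and glycolysis and hypoxia response furthest to the right.

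Mitosis was the single list with every measured member called. All 25 measured of a list of 30 fell between 8 h and 24 h, with differences from -4.71 to -1.22 and a median of -1.89, and all were late losses. Without replicate 1 of 24 h 23 were called, and 25 without replicate 2. Summed over the list, intensity was 2283 to 2714 at 24 h, against 10029 to 10330 at 8 h. At 0 h it was 29814 to 30283. In bulk RNA, fewer dividing cells and less of these RNAs per cell cannot be told apart.

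Cyclin B2 (Ccnb2), a partner of the mitotic kinase Cdk1, read 6.00 and 5.72 at 24 h, against 10.60 and 10.53 at 8 h (-4.71 ± 0.25, adjusted p = 1.5e-17), a 26.1-fold fall. Its mean over the course was 11.59, 11.71, 11.55, 11.39, 10.56 and 5.86 at 0, 1, 2, 4, 8 and 24 h, so most of its fall on the log2 scale came after 8 h. Plk1, the polo-like kinase of mitotic entry and spindle assembly, read 4.70 and 4.72, against 8.92 and 8.84 (-4.17 ± 0.29), with 10.82 and 10.72 at 0 h. Their promoters are shown because CCAAT boxes and the CHR element are known from genes of the late cell cycle. Ccnb2 lies at chr9:70421555-70421804 on the minus strand and Plk1 at chr7:122159185-122159434 on the plus strand, with capitals as above.
Ccnb2: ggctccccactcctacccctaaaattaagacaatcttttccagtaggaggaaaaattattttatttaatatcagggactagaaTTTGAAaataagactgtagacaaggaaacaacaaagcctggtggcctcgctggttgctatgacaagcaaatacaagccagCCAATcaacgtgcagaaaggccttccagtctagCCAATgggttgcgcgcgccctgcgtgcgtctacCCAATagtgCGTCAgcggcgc
Plk1: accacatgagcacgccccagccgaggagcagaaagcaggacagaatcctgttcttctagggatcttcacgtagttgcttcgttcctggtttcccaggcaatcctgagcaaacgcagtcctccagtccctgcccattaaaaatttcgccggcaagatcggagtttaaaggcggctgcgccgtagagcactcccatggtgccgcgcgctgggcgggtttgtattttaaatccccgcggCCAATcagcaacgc

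The Ccnb2 stretch holds 3 CCAAT boxes whose first bases lie at -87, -54 and -21, a CHR match from -167 to -162 and a CRE core from -12 to -8, and a further CHR match lies at bases 5 to 10 after the start. The Plk1 stretch holds a CCAAT box from -14 to -10, and a CHR match lies at bases 31 to 36 after the start. Among the 23 windows of mitosis genes, which 22 of the 25 genes had, 19 (82.6%) held a CCAAT box and 18 (78.3%) a CHR match. Over all windows in the table the shares were 37.4% and 17.9%, and over the genes tested 37.5% and 14.8%. For the 241 windows of the late loss class they were 54.8% and 33.2%.

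Of the other leaders of late loss, Ccna2 (cyclin A2) read 5.55 and 5.25 at 24 h, against 9.48 and 9.53 at 8 h (-4.10 ± 0.31), with 11.71 and 11.68 at 0 h. Ckap2l, a spindle protein, differed in its course: it read 5.05 and 4.77, against 8.99 and 9.02 (-4.10 ± 0.23), while 0 h read 9.05 and 9.20, so almost all of its loss fell after 8 h. Iqgap3, a scaffold protein (-3.96 ± 0.24), Pclaf, a PCNA-binding protein (-3.94 ± 0.26), and Pimreg, a mitotic regulator (-3.54 ± 0.19), followed. The Pimreg 24 h mean lay in the dim range under 4.49. The smallest falls among the mitosis genes were those of Mki67, the proliferation antigen (-1.22 ± 0.12), and Mad2l1, a spindle checkpoint protein (-1.28 ± 0.21).

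DNA replication and nucleotide synthesis genes were already low at 8 h. Their median relative to 0 h was -2.56 at 24 h, against -1.94 at 8 h, and 6 of 28 were called lower between the times: Mcm10 (-2.76 ± 0.15), E2f8 (-1.92 ± 0.17), thymidine kinase Tk1 (-1.90 ± 0.21), the ribonucleotide reductase subunit Rrm2 (-1.86 ± 0.22), Mcm5 (-1.79 ± 0.15) and the ligase Lig1 (-1.37 ± 0.10). For mitosis genes the medians were -3.99 at 24 h, against -1.74 at 8 h. Tk1 read 5.54 and 5.87 at 24 h, against 7.35 and 7.87 at 8 h, with 10.43 and 10.43 at 0 h. Called falls made up 21.4% of the replication list, against 2.78% of all genes. Among G1 regulators 5.0% were called higher and 10.0% lower, against 3.28% and 2.78% of all genes. Of 20 G1 regulators 1 rose (2 without replicate 1 of 24 h), cyclin D3 (Ccnd3, 1.29 ± 0.17), and 2 fell, the retinoblastoma family member Rbl1 (-1.08 ± 0.12, and -0.90 and not called without replicate 1 of 24 h) and the stress sensor Gadd45b (-1.05 ± 0.23, and -0.83 and not called without replicate 2).

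**Figure D4:**
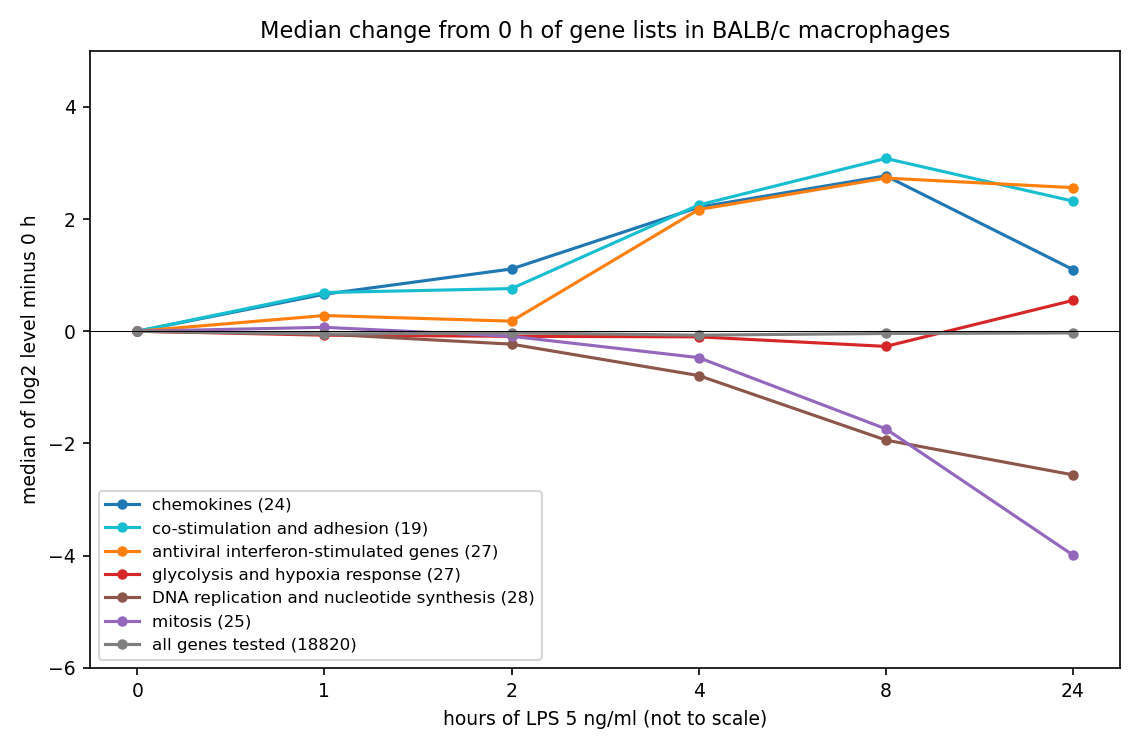
Median over each gene list of the log2 group mean minus that at 0 h, at 0, 1, 2, 4, 8 and 24 h of LPS at 5 ng/ml in BALB/c macrophages, with the number of genes in brackets. The antiviral median stands at 2.56 at 24 h, against 2.73 at 8 h, and the chemokine median at 1.1, against 2.77. The mitosis median stands at -3.99 at 24 h, against -1.74 at 8 h, and the glycolysis and hypoxia median at 0.55, against -0.27. A step between such medians is not the median change per gene.

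Late loss was not confined to the cell cycle. Mrc1, the mannose receptor CD206 of resting and alternatively activated macrophages, read 5.5 and 5.44 at 24 h, against 9.10 and 8.99 at 8 h (-3.58 ± 0.15, adjusted p = 4.2e-21), with 9.80 and 9.65 at 0 h. Of 23 macrophage identity genes 4 fell (17.4%, against 2.78% of all genes) and 1 rose (4.35%, against 3.28%). Mrc1, Gas6, a ligand of the TAM receptors, the complement component C1qc (-1.15 ± 0.13) and the transcription factor Maf (-1.05 ± 0.16) fell, and the sialic acid receptor Siglec1 rose (1.45 ± 0.29). Gas6 read 8.11 and 7.83, against 10.23 and 10.24 (-2.26 ± 0.15), with 11.43 and 11.51 at 0 h. C1qc was not called without replicate 2 of 24 h (-0.86). Of 19 matrix proteases and inhibitors 6 fell, 3 as resolutions and 3 as late losses, led by the collagenase Mmp13 (-2.56 ± 0.19) and the aggrecanase Adamts4 (-2.43 ± 0.22), with Mmp25 (-1.77 ± 0.22), Mmp8, the urokinase receptor Plaur (-1.23 ± 0.10) and fibronectin (-1.21 ± 0.19). Serpinb2, an inhibitor of plasminogen activators, rose (2.12 ± 0.24). Called falls made up 31.6% of this list and rises 5.26%, against 2.78% and 3.28% of all genes. In the pattern recognition list 1 of 28 rose (3.57%, near the 3.28% of all genes), the scavenger receptor Marco (1.17 ± 0.36). Its call was lost without either 24 h array (adjusted p = 0.052 and 0.053) and without replicate 1 of 8 h (0.83, adjusted p = 0.21). Of the same list 2 fell (7.14%, against 2.78% of all genes), and 4 without replicate 2 of 24 h, the 2 being the inflammasome sensor Nlrp3 (-1.16 ± 0.12) and the beta-glucan receptor Clec7a (-1.05 ± 0.21, and -0.73 and not called without replicate 1).

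Late induction was led by Ly6i, a small GPI-anchored protein of the Ly6 family, at 8.32 and 8.71 at 24 h, against 3.79 and 4.49 at 8 h (4.38 ± 0.48, adjusted p = 1.5e-09), a 20.8-fold rise. The 0 h arrays read 3.54 and 3.59, in the dim range, and close relatives of the Ly6 family may share its signal. Susd2, a membrane protein with a sushi domain, continued an earlier rise: it read 11.46 and 11.11 at 24 h, against 7.97 and 8.31 at 8 h (3.15 ± 0.68), and 4.51 and 4.57 at 0 h. Trib3, a pseudokinase and known target of the stress factors Atf4 and CHOP, read 9.05 and 8.41 at 24 h, against 5.53 and 5.68 at 8 h (3.13 ± 0.16, adjusted p = 3.1e-18), with 7.01 and 7.22 at 0 h. Vegfa, the vascular growth factor and a known HIF target, read 9.48 and 9.16, against 6.17 and 6.32 (3.08 ± 0.17), with 6.88 and 6.91 at 0 h. Both genes were thus lower at 8 h than at 0 h before they rose. Their promoters are shown as the 2 strongest late inductions with an entry in the table. Trib3 lies at chr2:152344061-152344310 and Vegfa at chr17:46032378-46032627, both on the minus strand. Trib3 holds CRE cores from -237 to -233 and from -10 to -6. Vegfa has 2 promoter windows, of which the first is shown. It holds a kappaB match from -118 to -109, a CHR match from -197 to -192 and a CCAAT box from -235 to -231.
Trib3: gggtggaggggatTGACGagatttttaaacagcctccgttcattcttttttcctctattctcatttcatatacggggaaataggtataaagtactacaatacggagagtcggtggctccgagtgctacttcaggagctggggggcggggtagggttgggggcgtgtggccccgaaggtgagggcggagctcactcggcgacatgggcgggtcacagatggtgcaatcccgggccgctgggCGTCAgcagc
Vegfa: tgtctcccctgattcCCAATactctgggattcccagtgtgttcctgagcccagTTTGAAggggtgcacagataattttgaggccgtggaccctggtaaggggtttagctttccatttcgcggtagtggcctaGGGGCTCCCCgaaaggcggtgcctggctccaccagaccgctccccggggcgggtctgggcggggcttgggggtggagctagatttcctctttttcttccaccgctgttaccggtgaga

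The CRE core was found in 18.7% of the 193 windows of late induction genes and in 20.8% of all windows, so its share in the class was no higher than in the table.

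Further leaders were the glycine transporter Slc6a9, at 10.07 and 9.52 at 24 h, against 6.72 and 6.76 at 8 h (3.06 ± 0.30), and the SLAM family receptor Slamf6, at 7.32 and 7.92, against 4.40 and 4.81 (3.02 ± 0.28). Haptoglobin (Hp), which binds free haemoglobin, read 9.53 and 8.77, against 6.10 and 6.31 (2.94 ± 0.43), with 4.82 and 4.69 at 0 h. Egln3, a prolyl hydroxylase that marks HIF for degradation, read 7.41 and 7.73, against 4.42 and 4.85 (2.93 ± 0.21), with 5.70 and 5.62 at 0 h. The cytochrome oxidase subunit Cox6a2, known from heart and skeletal muscle, rose by 2.79 ± 0.19 and the interleukin-21 receptor Il21r by 2.79 ± 0.16. In all of these genes the lower 24 h array lay above the higher 8 h array by more than the gap between replicates.

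Glycolysis and hypoxia response genes rose in 11 of 27 cases and fell in 0, with a median of 0.78, which compares with 3.28% of all genes called higher. Besides Vegfa and Egln3, the lactate exporter Slc16a3 (Mct4) read 11.27 and 11.30 at 24 h, against 9.15 and 9.05 at 8 h (2.18 ± 0.08, adjusted p = 4.6e-23), with 9.74 and 9.71 at 0 h. Bnip3, a mitophagy receptor, read 10.43 and 10.77, against 8.50 and 8.64 (2.03 ± 0.14). The other rises were in the oxidoreductase Ero1a (1.71 ± 0.12), phosphofructokinase Pfkl (1.65 ± 0.14), the pyruvate dehydrogenase kinase Pdk1 (1.64 ± 0.16), Egln1 (1.47 ± 0.11), Pfkfb3 (1.29 ± 0.12), the collagen hydroxylase P4ha2 (1.28 ± 0.16) and Tpi1 (1.05 ± 0.08). Of the 11, 7 were late inductions and 2 recoveries. Lactate dehydrogenase Ldha (0.51 ± 0.08) and the glucose transporter Slc2a1 (0.78 ± 0.11) had adjusted p-values of 1.2e-06 and 2.1e-07 but missed the minimum change. The count was 10 without replicate 2 of 24 h and 12 without replicate 1.

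Stress and redox genes also held rises. Called higher were 26.3% of the stress list and 15.0% of the Nrf2 and antioxidant list, against 3.28% of all genes. Of 19 genes of ER stress and the integrated stress response 5 rose and 0 fell, with a median of 0.59: Trib3, the mTORC1 inhibitor Ddit4 (1.83 ± 0.25), the glutathione-degrading enzyme Chac1 (1.34 ± 0.16), the ER chaperone Dnajb9 (1.32 ± 0.17) and Sesn2 (1.29 ± 0.18). Ddit4 read 6.79 and 7.34 at 24 h, against 5.35 and 5.13 at 8 h, with 5.52 and 5.63 at 0 h. Of 20 Nrf2 and antioxidant genes 3 rose, the glutathione synthesis subunit Gclm (1.13 ± 0.16), malic enzyme Me1 (1.05 ± 0.13) and haem oxygenase Hmox1 (1.04 ± 0.13). All 3 lay near the minimum change and missed it without replicate 2 of 24 h (0.86, 0.94 and 0.99), when a single other member was called. Of 16 iron genes 3 rose, Lcn2, Hmox1 and the phagosomal metal exporter Slc11a1 (1.06 ± 0.08), and 1 without that replicate. The share of iron genes called higher was 18.8% and that of complement genes 12.5%, against 3.28% of all genes. Of 16 complement genes 2 rose, the proteases C1ra (1.28 ± 0.33) and C1s1 (1.26 ± 0.25), though C1s1 stayed in the dim range at both 24 h and 8 h. Complement factor B (Cfb) read 12.28 and 12.35 at 24 h, against 10.76 and 10.75 at 8 h (1.56 ± 0.71), and was not called (adjusted p = 0.11). Its SE pools spread over all groups, and with only the arrays compared in the fit its adjusted p was 0.0014.

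Recovery was the largest class of rises. Tnfrsf26, a TNF receptor family member, read 9.53 and 9.96 at 24 h, against 7.21 and 6.85 at 8 h (2.71 ± 0.16), with 9.03 and 8.77 at 0 h. Jade1, a scaffold of histone acetyltransferase complexes, read 8.45 and 8.14, against 5.82 and 5.66 (2.56 ± 0.15), with 7.82 and 7.93 at 0 h. In both genes both 24 h arrays lay above both 0 h arrays. The apolipoprotein E receptor Lrp8 (2.51 ± 0.16) and the vesicle protein Syt11 (2.43 ± 0.14) followed. Bcl2, the inhibitor of apoptosis, read 9.35 and 9.02 at 24 h, against 6.99 and 7.19 at 8 h (2.10 ± 0.22), with 9.68 and 9.79 at 0 h, whereas the death ligand Tnfsf10 (TRAIL) fell (-1.72 ± 0.37). These were the only calls among 17 apoptosis regulators, of which 2 fell without replicate 1 of 24 h. The rise and the fall were each 5.88% of the apoptosis list, against 3.28% of all genes higher and 2.78% lower. Tgfbi, a secreted matrix protein, read 12.39 and 12.29 at 24 h, against 9.70 and 9.66 at 8 h (2.66 ± 0.09, adjusted p = 1.1e-23). Since 0 h read 11.25 and 11.27, it went past its start and counted as a late induction. With Mrc1 and Ccl24, which fell, it made up the calls among 13 genes of alternative activation. The rise was 7.69% of that list and the falls 15.4%, against 3.28% and 2.78% of all genes. Of the 13 genes 7 were in the dim range at all 3 times.

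Clock genes rose in 4 of 14 cases (28.6%, against 3.28% of all genes) and fell in 0. The rises were in the repressors Bhlhe40 (2.38 ± 0.22) and Bhlhe41 (1.15 ± 0.13), Per2 (1.86 ± 0.21) and Cry2 (1.01 ± 0.17). Bhlhe40 read 8.62 and 9.01 at 24 h, against 6.01 and 6.85 at 8 h, with 8.81 and 8.73 at 0 h. Bhlhe41 (0.97) was not called without replicate 2 of 24 h and Cry2 (0.74) not without replicate 1. Time of day was not among the labels.

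Of 21 genes of sterol synthesis and export 3 fell (14.3%, against 2.78% of all genes) and 0 rose, with a median of -0.69, and 19 had an unadjusted p under 0.05. The calls were the sterol demethylase Cyp51 (-1.55 ± 0.10), the mevalonate pathway enzyme Hmgcs1 (-1.41 ± 0.13) and Idi1 (-1.36 ± 0.32, and -0.78 and not called without replicate 1 of 24 h). Cyp51 read 8.79 and 8.74 at 24 h, against 10.33 and 10.31 at 8 h, with 9.25 and 9.27 at 0 h. Ribosome biogenesis genes had 1 fall in 23, Rrs1 (-1.5 ± 0.34), and 2 without replicate 1 of 24 h. The 1 fall was 4.35% of the ribosome list, against 2.78% of all genes. Of 23 lysosome genes and 24 subunits of the respiratory chain 0 were called by limma, with medians of 0.10 and -0.01. Among all genes 6.06% were called, so counts of 0 in lists of this size lie near that share. Of the lysosome and respiratory chain genes 10 and 7 had an unadjusted p under 0.05. The protease Ctsh had the largest difference among the lysosome genes (0.96 ± 0.26) and was called without replicate 1 of 24 h (1.32).

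The same interval in C57BL/6 macrophages at the same LPS dose asked whether the late change differed between strains; strain and preparation cannot be told apart in it. Replicate 2 of C57BL/6 at 24 h stood apart from its pair, with 30 genes more than 1.5 log2 away, among them Ccna2 at 7.55 against 5.43 in replicate 1. In C57BL/6 1102 genes were called between 24 h and 8 h (5.86%), 579 higher (3.08%) and 523 lower (2.78%). Of the 1141 genes called in BALB/c 1122 had the same sign in C57BL/6, and 0 genes of the 4 classes were called in the opposite direction there. The share with the same sign over all genes was not taken, so the 1122 cannot be set against a general agreement between the strains. Calls in the same direction were made for 120 of 217 resolution, 196 of 249 late loss, 122 of 181 late induction and 154 of 283 recovery genes. The medians of these classes in C57BL/6 were -1.06, -1.57, 1.33 and 1.06, against the BALB/c medians of -1.38, -1.5, 1.53 and 1.28 by which the genes had been chosen.

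The difference between the strains' late changes was itself called for 186 genes (0.988%), 92 with a higher value in BALB/c (0.489%) and 94 with a lower one (0.499%). Without replicate 2 of C57BL/6 at 24 h the count was 289, and without replicate 1 of BALB/c at 24 h it was 280. With only the arrays compared in the fit it was 23. Of the 186 genes 71 were called in BALB/c alone, 38 in C57BL/6 alone, 25 in both and 52 in neither. The mitosis list held 0 of the 186 at a median of -2.04 in C57BL/6, and the glycolysis and hypoxia list held 2 at a median of 0.52 there.

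Fmo1, a flavin monooxygenase, rose late in BALB/c and was not called in C57BL/6: it read 7.17 and 7.28 at 24 h, against 4.54 and 4.43 at 8 h, while C57BL/6 arrays read 4.43 and 4.07 at 24 h, against 4.39 and 5.09 at 8 h (difference of changes 3.23 ± 0.30, adjusted p = 3.4e-09). Gfi1 resolved more strongly in BALB/c (difference -2.24 ± 0.28, adjusted p = 1.3e-06), and its C57BL/6 arrays read 4.73 and 4.44 at 24 h, against 5.99 and 5.88 at 8 h. The strains thus differed mainly at 8 h. Ccl24 behaved likewise (-2.20 ± 0.38, adjusted p = 0.00033), with C57BL/6 arrays at 3.91 and 4.17, against 4.60 and 4.44. A difference mainly at 8 h was also seen for Il1bos (-2.34 ± 0.26), annotated antisense to Il1b, for which the files do not state whether strands were told apart, with C57BL/6 arrays at 3.58 and 3.69, against 3.81 and 3.76. These C57BL/6 arrays of Il1bos all lay in the dim range under 4.49, as did most of those of Fmo1 and Ccl24. For these genes a weaker late change in C57BL/6 cannot be told from a lack of signal.

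Slamf1, a SLAM family receptor, rose in C57BL/6 (1.73) and changed by -0.74 ± 0.22 in BALB/c, which is under the minimum change (difference -2.47 ± 0.31, adjusted p = 1.3e-06). It read 7.50 and 7.94 at 24 h, against 8.42 and 8.50 at 8 h in BALB/c, and 7.74 and 7.76, against 5.91 and 6.14 in C57BL/6, so the strains were close at 24 h and apart at 8 h. Plagl1, a zinc finger factor (2.47 ± 0.22), Arhgap19 (2.11 ± 0.22), and Ngp, a neutrophil granule protein (2.10 ± 0.39), fell in C57BL/6 and were not called in BALB/c. Plagl1 read 5.48 and 5.46 at 24 h, against 5.61 and 5.92 at 8 h in BALB/c, and 5.47 and 5.23, against 8.15 and 8.08 in C57BL/6. The BALB/c means of Arhgap19 and Ngp lay in the dim range at both times. Tgfbi rose more in BALB/c, by 1.72 ± 0.12 (adjusted p = 4.5e-12), and its C57BL/6 change was 0.94.

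**Figure D5:**
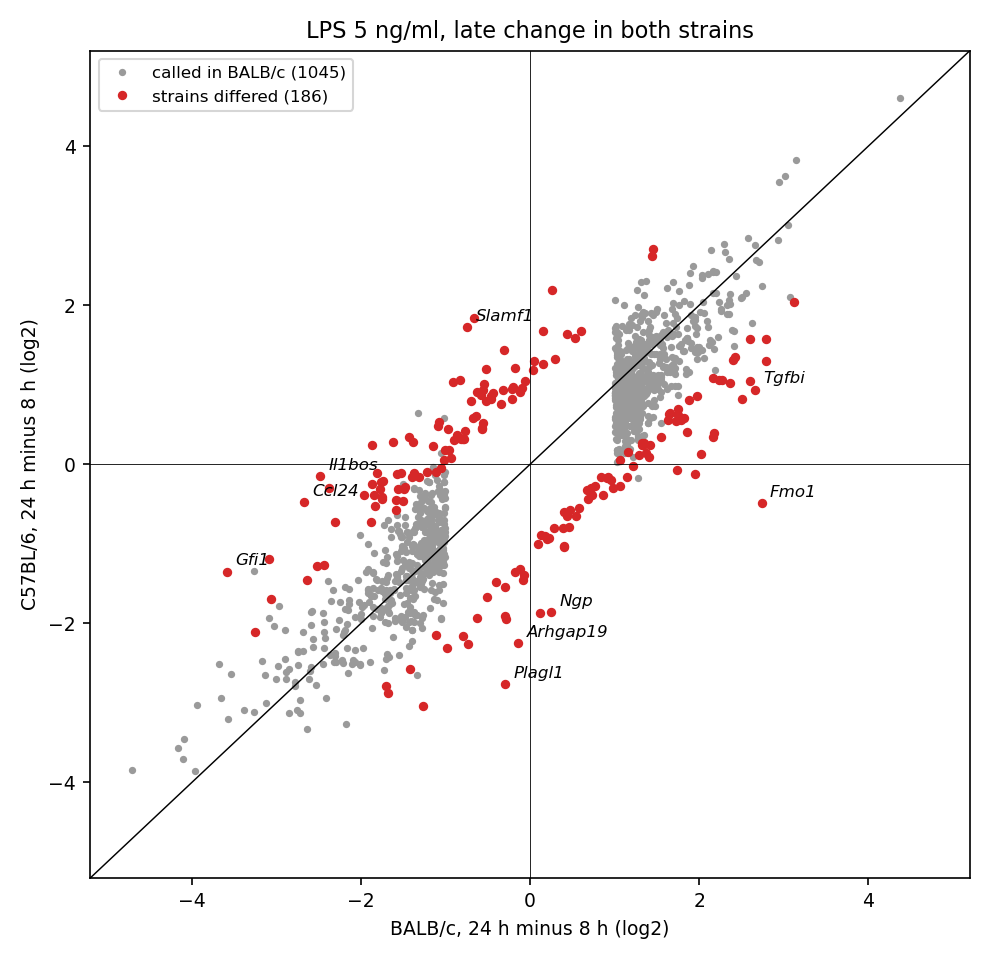
The 24 h minus 8 h log2 difference in BALB/c (across) and in C57BL/6 (upward), both in LPS at 5 ng/ml, for 1045 genes called in BALB/c whose strain difference was not called and for the 186 genes whose strain difference was called. The line marks equal change; most points lie in the lower left and the upper right, and Fmo1, Slamf1 and Plagl1 lie far from the line.

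Interferon courses of the same strain covered the same interval of culture with other arrays, and asked how far the late change differs from that in cells given an interferon. Both comparisons share the LPS arrays. One of the 24 h arrays of IFN-beta was in the smaller set of arrays (score 0.229), as was one of LPS, while all 8 h and 24 h arrays of IFN-gamma, and of C57BL/6 in LPS at 5 ng/ml, were in the larger. In IFN-beta 436 genes were called between 24 h and 8 h (2.32%), 152 higher (0.808%) and 284 lower (1.51%). In IFN-gamma 149 were called (0.792%), 80 higher (0.425%) and 69 lower (0.367%). The difference between LPS and IFN-beta was called for 1005 genes (5.34%), with 523 higher in LPS (2.78%) and 482 lower (2.56%), and that between LPS and IFN-gamma for 1116 (5.93%), with 590 higher (3.13%) and 526 lower (2.79%). Of the 249 late loss genes 178 differed from IFN-beta and 176 from IFN-gamma, all toward a larger fall in LPS, and of the 181 late induction genes 137 and 144, all toward a larger rise. For resolution 107 of 217 differed from IFN-beta, 100 of them toward a larger fall in LPS, and 143 from IFN-gamma. Recovery differed in 105 and 174 of 283. Since the classes were picked by their change in LPS, the counts against the shares over all genes describe these classes and are no independent support.

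Ccnb2 showed the contrast: beside its -4.71 ± 0.25 in LPS it changed by -0.59 in IFN-beta, at 10.36 and 10.73 at 24 h, against 11.11 and 11.17 at 8 h (difference -4.11 ± 0.36, adjusted p = 3.1e-11). In IFN-gamma it changed by -0.65 (difference -4.05 ± 0.36). Ccna2 (-3.86 ± 0.43 against IFN-beta and -3.96 ± 0.43 against IFN-gamma) and Ckap2l (-3.72 ± 0.32 against IFN-beta) differed likewise, as did Pclaf against IFN-gamma (-4.35 ± 0.37). Mrc1 changed by 0.67 in IFN-beta, under the minimum change, where it read 10.04 and 10.06 at 24 h, against 9.38 and 9.37 at 8 h (difference -4.25 ± 0.21, adjusted p = 4.6e-18). Klk1b11, a kallikrein-related peptidase whose close relatives may share its signal, fell in LPS (-2.22 ± 0.30) and changed by 1.91 in IFN-gamma (difference -4.13 ± 0.42).

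Among the rises, Vegfa read 6.99 and 6.34 at 24 h, against 8.20 and 7.89 at 8 h in IFN-beta, which is the reverse of its change in LPS (difference 4.46 ± 0.24, adjusted p = 5.7e-17). Il21r ran the same course in IFN-beta, at 6.36 and 5.98, against 7.75 and 7.65 (difference 4.32 ± 0.23). Thbs1, the matrix protein thrombospondin-1, was not called in LPS (0.76 ± 0.36) and dropped in IFN-beta by 3.64 (difference 4.40 ± 0.50). Ly6i changed by -0.06 in IFN-beta and 0.41 in IFN-gamma, neither of them called, with differences of 4.44 ± 0.67 from IFN-beta and 3.97 ± 0.67 from IFN-gamma. Against IFN-gamma the lipid phosphatase Plpp1 (3.61 ± 0.37), Susd2 (3.35 ± 0.96) and Egln3 (3.30 ± 0.29) had the next largest differences. The Susd2 difference lost its call without replicate 1 of LPS at 8 h and without either of 2 IFN-gamma arrays (lowest value 2.97).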

How the data were processed

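RNA of 64 samples was measured on Affymetrix arrays. The deposited values are intensities on a linear scale, 1 per probe set and array, from 2.49 to 17782. Array medians of 25.6 to 29.0 show that they were already brought to a like level. Affymetrix Expression Console 1.1 is named per the submitters' processing notes; the method of background correction and normalisation is not given in the sources used here. No detection calls were used, so levels under 4.49 (the 40th percentile of all gene values) are called dim.

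Intensities were taken as log2. Of 35556 probe sets 21218 had 1 gene symbol, 1881 several and 12457 none in the platform annotation, and those of a single symbol gave 18820 genes. Where several probe sets named a gene (1386 genes), the brightest by its mean over all arrays stood for it. limma 3.58.1 in R 4.3.3 fitted 1 mean for each of 32 groups of 2 wells, with 32 residual degrees of freedom, and eBayes. Differences of changes were contrasts of the same fit. The test was tried on simulated data first.

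Genes are named by this rule: the 10 largest falls in resolution, the 8 largest in late loss, the 10 largest rises in late induction and the 4 largest in recovery, without gene-model names, up to 4 members with the largest difference in each list, and the 4 largest in each direction in each comparison of changes. Other called members, and Tnf, Il1b, Nos2, Acod1, Ldha, Slc2a1 and Mki67, were named after their values were seen. The genes, classes and lists were chosen with earlier results of these data known. Among 757 list entries 69 had no probe set of 1 symbol and were not analysed here. Alternatives covered normalisation, dim genes, probe sets, arrays in the fit, the threshold, the array sets and each replicate left out. The labels do not say whether replicate numbers pair the wells, and the main fit did not pair them. The correlations of replicate deviations between 24 h and 8 h were 0.06 for LPS in BALB/c, 0.02 in C57BL/6, and 0 in both interferons. Such values cannot show that wells were unpaired, since the BALB/c pairs at 24 h of LPS and IFN-beta were split between the array sets. Other tools used were data.table (version 1.17.8), pandas 2.3.3 and matplotlib 3.10.9.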

Additional observations from a re-analysis of the deposited data

Results flagged for a closer look

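The change between 24 h and 8 h of LPS differed between BALB/c and C57BL/6 in 186 genes by the test of the difference itself. Among the genes named, the largest positive differences (BALB/c minus C57BL/6, log2) were those of Fmo1 (3.23), Plagl1 (2.47), Arhgap19 (2.11) and Ngp (2.10). Further positive ones were Tgfbi (1.72), Lrp8 (1.69), Il21r (1.49), the metallothionein Mt2 (1.27), Ifngr1 (1.24), Cox6a2 (1.22), Trib3 (1.09) and Ccr7 (1.07). The most negative were Slamf1 (-2.47), Il1bos (-2.34), Gfi1 (-2.24) and Ccl24 (-2.20), followed by Flt3 (-1.26), Myc (-1.19), Adamts4 (-1.17) and Trp53i11 (-1.15). The Flt3 difference, between dim levels in BALB/c, lost its call under 10 of 17 other settings, and those of Adamts4 and Ccr7 under 8 and 6. Those of Cox6a2 and Ifngr1 lost it under 3, and those of Trib3 and Trp53i11 under 2. For Ngp, Il21r, Lrp8, Mt2 and Myc it was lost under 1, with only the arrays compared in the fit. Strain and preparation of the cells cannot be told apart.

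Outside the genes tested, 265 of 12457 probe sets without an annotated gene were called between 24 h and 8 h (2.13%), 140 higher and 125 lower. These probe sets also defined the sets of arrays. Of 1881 probe sets with several symbols 78 were called (4.15%), 38 higher and 40 lower.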

How the results depend on the processing

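Of 3765 values of named genes under other settings 3579 stayed on their side of the threshold, 56 crossed it to become called and 130 were no longer called. Of the values called in the main fit 0 were reversed. Signs of values not called in the main fit were not compared, and some of these changed. Of 105 named genes called between 24 h and 8 h 72 lost their call under no setting in which they were tested. The setting without dim genes did not test those it removed. With no minimum change the calls were 4955 (2823 higher, 2132 lower), 551 for the strain difference (299, 252), 2593 against IFN-beta (1421, 1172) and 2898 against IFN-gamma (1660, 1238), and the classes held 515 resolution, 503 late loss, 324 late induction and 688 recovery genes. With a minimum of 1.5 they were 401 (180, 221), 44 (17, 27), 412 (196, 216) and 397 (169, 228), and 87, 124, 95 and 77 in the classes. With only the arrays compared the strain difference was called for 23 genes (9 higher, 14 lower), and with only the larger set of arrays 144 were higher. At 1.5 log2 from 0 h late induction held 108 and recovery 160 genes. Leaving out 1 replicate gave 1128 to 1286 calls (581 to 714 higher, 531 to 572 lower), 179 to 289 for the strain difference (78 to 172, 89 to 141), 984 to 1143 against IFN-beta (470 to 620, 467 to 532) and 1072 to 1241 against IFN-gamma (530 to 665, 510 to 583). The classes then held 208 to 229 resolution, 240 to 271 late loss, 173 to 238 late induction and 252 to 341 recovery genes. With the replicate block 1140 genes were called between 24 h and 8 h, 189 for the strain difference, 1007 against IFN-beta and 1115 against IFN-gamma, and no named gene lost its call between 24 h and 8 h. With 1 array left in a group, that array is assumed to vary like the other groups. The causes of these shifts were not tested.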
